A study of Sus scrofa with 12 samples.

Results

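Heat shock proteins and other protein-folding chaperones were examined in the pig hypothalamus, the brain region that governs feeding and energy balance. The members were all genes whose platform symbol belongs to the HSPA, HSPB, HSPD, HSPE, HSPH or HSP90 families, to the J protein families DNAJA, DNAJB and DNAJC, to the numbered protein disulfide isomerases of the PDIA family, or to the CCT subunits 2 to 8. This gave 73 genes with 119 probe sets among 13755 named genes, and each gene was represented by the probe set with the highest mean over the arrays. A filter that left out the dimmest 25% of all probe sets kept 71 of the 73 members. DNAJB1, the main J protein partner of the stress-inducible cytosolic HSP70s, was not tested, with a log2 signal of 1.40 ± 0.11 in low and 1.60 ± 0.21 in high feed efficiency pigs (SD, n = 6 each). DNAJC8 was not tested either, with a mean of 1.94 and a highest signal of 3.47 in low feed efficiency pigs, against a mean of 2.88 and a highest signal of 4.86 in high feed efficiency pigs. By the compartment in which the proteins are known to act, 12 of the 73 were endoplasmic reticulum (ER) chaperones, 34 cytosolic and 8 mitochondrial. A further 10 were J proteins of the ER membrane facing the cytosol or of vesicles, and 9 were not assigned to a compartment. No probe set used here carried the symbols HSP90B1, HSPA9, HSPA4, HSPA1A, HSPA1B, HSPA1L, HSPA6, DNAJB7 or CCT6B, so the ER form of HSP90, the mitochondrial HSP70 and the classical inducible HSP70s were not analysed here.

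The study set low against high feed efficiency in pigs (Sus scrofa) of 140 days of age, with 1 whole-transcript Affymetrix Snowball array for the hypothalamus of each of 12 animals. The low feed efficiency group held 6 pigs (3 females, 3 males) and the high feed efficiency group 6 pigs (3 females, 3 males). No treatment was given, and the sources used here do not give the breed. Each array was a separate pig by its identifier, and 2 females of each feed efficiency group belonged to a separate run of higher identifiers.

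Array medians ran from 4.35 to 4.42 and correlations between arrays from 0.974 to 0.982. The tissue label was checked on neuropeptide genes of the hypothalamus (OXT, AVP, HCRT, PMCH, TRH, SST and CARTPT), all 7 of which had mean signals from 7.71 to 11.80. The 69 background probe sets of the array had means of 1.30 to 7.49, with a median of 2.35. Of the tested members, 35 had a mean above that range and 36 within it, where a signal can lie at background. The SD over the 12 pigs had a median of 0.15 among the members, against 0.18 among all 12609 genes tested.

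Chaperones bind unfolded or partly folded proteins and help them reach or keep their folded state. HSP70 proteins do this in cycles of ATP hydrolysis that J proteins (the DNAJ families) start and HSP110 proteins reset, HSP90 acts on late folding steps of kinases and hormone receptors, and the CCT complex folds actin and tubulin in a closed chamber. The ER has its own HSP70 (HSPA5, also called BiP) and oxidative folding enzymes (the PDIA family), and mitochondria fold imported proteins in the HSPD1-HSPE1 chamber. Neurosecretory cells of the hypothalamus pass large amounts of peptide precursors through the ER. Unfolded protein in the ER and in the cytosol is known to induce partly separate chaperone sets, through the unfolded protein response and through heat shock factor.

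No member passed the limma test between low and high feed efficiency, and the differences were small. Of the 71 members tested, 0 were called at an adjusted p under 0.05, the lowest adjusted p being 0.764, and 5 had an unadjusted p under 0.05, 4 of them higher and 1 lower in low feed efficiency pigs. On the whole array 0 of 35791 probe sets were called (0%), and an unadjusted p under 0.05 was found for 7.04% of the members, against 5.5% of all genes. Counting only genes higher in low feed efficiency pigs, all genes gave 2.53%. The difference was positive, meaning higher in low feed efficiency pigs, for 49 of 71 members (69.0%), against 49.5% of all genes tested. Since brighter genes leaned the same way, the members above the background range were also set beside such genes, a comparison chosen after the values were seen: 25 of 35 members (71.4%) and 56.2% of 2738 genes had a positive difference. The members' median difference was 0.04 on the log2 scale, and that of all genes was -0.00172. The members' median was 0.0571 with equal array medians, when that of all genes was 0.0202. It was 0.0530 without low feed efficiency pig 5 and 0.0539 without high feed efficiency pig 1. Its lowest value over the alternatives was 0.0297, without low feed efficiency pig 4. Members share pigs and vary together, so these shares do not count independent observations. In bulk tissue, fewer cells of a type and less RNA per cell cannot be told apart.

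For 69 of the 71 members the 95% interval of the difference lay within a 1.5-fold change in array signal in either direction. The exceptions were CCT6A, whose interval reached 1.55-fold, and DNAJC22, whose interval reached 1.76-fold. Values within the background range can understate a change in transcript. In simulated data with the spread of these arrays, the same test called 75% of 100 probe sets changed by 1 and 15% of 100 changed by 0.5 on the log2 scale, both among 35791 probe sets.

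**Figure D1:**
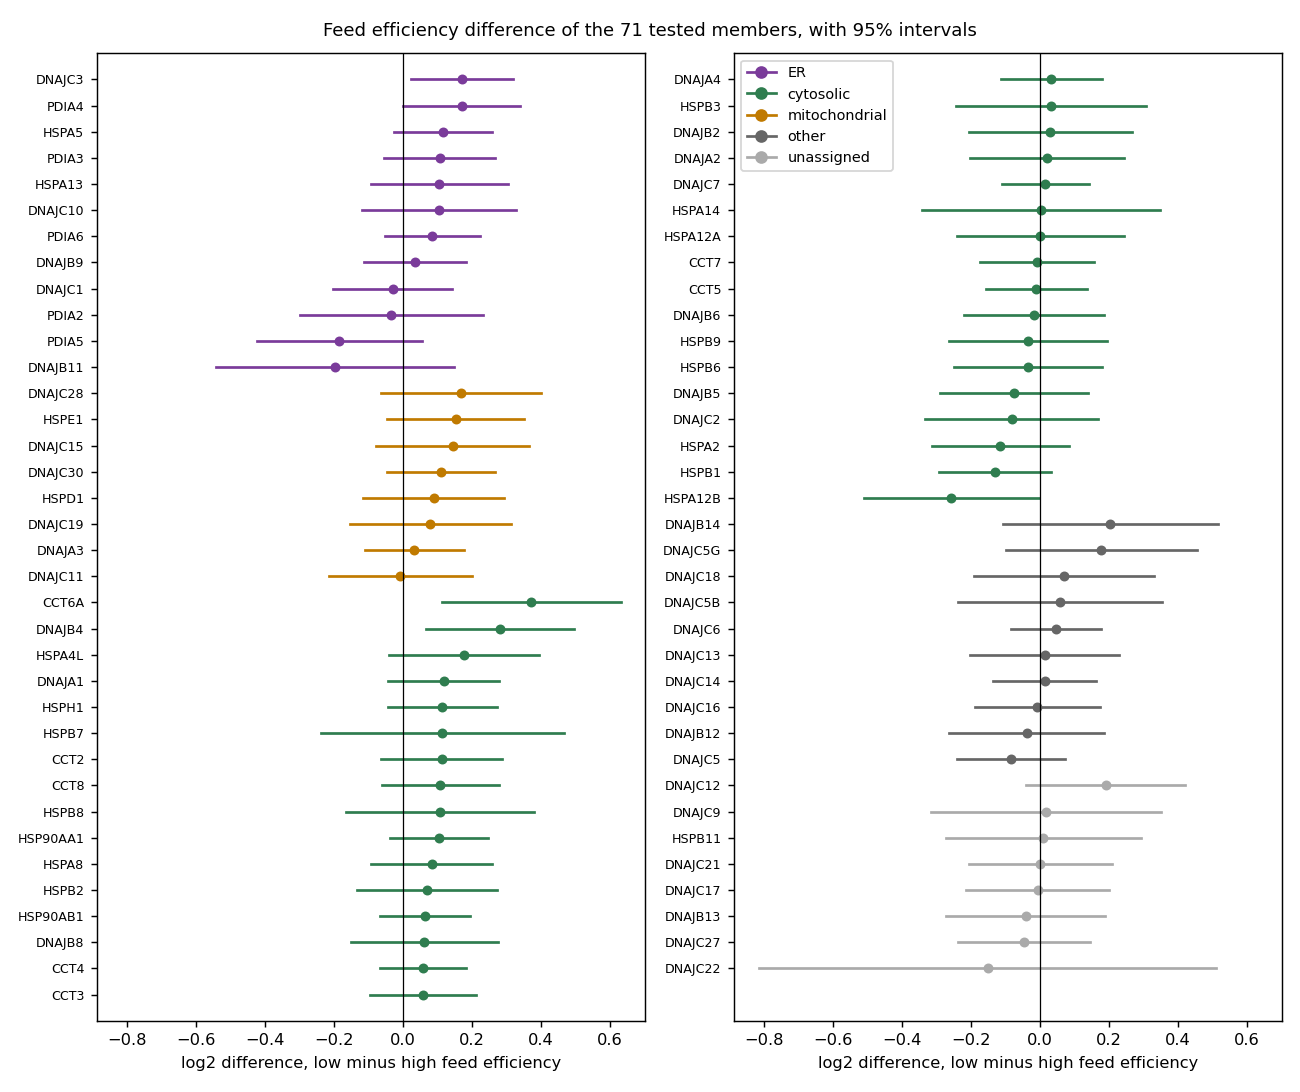
Difference in log2 array signal, low minus high feed efficiency (horizontal axis), for each of the 71 tested members (points) with limma's 95% interval (lines), coloured by compartment. Most points lie right of 0 and most intervals cross it, with CCT6A at 0.37 and DNAJB4 at 0.28 farthest to the right and HSPA12B at -0.26 farthest to the left.

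The ER chaperones had a median difference of 0.10, and 8 of 12 were higher in low feed efficiency pigs. The median was 0.0620 without low feed efficiency pig 1 and 0.0579 without high feed efficiency pig 2. HSPA5, the ER HSP70 that binds unfolded proteins and restrains the sensors of the unfolded protein response, had signals of 10.23 (lowest), 10.28 (median) and 10.49 (highest) in low feed efficiency pigs, against 10.08, 10.20 and 10.25 in high feed efficiency pigs. The ranges overlapped from 10.23 to 10.25, where pigs of both groups lay, and all 6 low feed efficiency pigs lay above the mean of the high group. The difference was 0.12 ± 0.07 (SE; adjusted p = 0.819, limma).

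DNAJC3, an ER J protein that works with HSPA5 and inhibits the kinase EIF2AK3, ranged from 7.35 to 7.57 in low feed efficiency pigs with a median of 7.45, against 7.13 to 7.33 with a median of 7.32 in high feed efficiency pigs. It was the only member whose groups did not overlap, as was true of 0.23% of all genes. Its difference of 0.17 ± 0.07 (SE) had an unadjusted p of 0.0267 and an adjusted p of 0.796 (limma). The mean signal of its probe set lay within the background range, and its other 3 probe sets differed by -0.03 to 0.61.

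PDIA4, a disulfide isomerase of the ER lumen, ranged from 7.37 to 7.66 in low feed efficiency pigs with a median of 7.52, against 7.18 to 7.47 with a median of 7.37 in high feed efficiency pigs. The groups overlapped, although every low feed efficiency pig lay above the high group's mean, and the difference was 0.17 ± 0.08 (SE; unadjusted p = 0.0498, adjusted p = 0.812, limma). Its mean signal lay within the background range. PDIA3, which folds glycoproteins together with calnexin and calreticulin, stood at 10.01, 10.06 and 10.21 (lowest, median, highest) in low and at 9.77, 9.96 and 10.14 in high feed efficiency pigs, a difference of 0.11 ± 0.07 (SE). The ranges of PDIA3 overlapped. Those of PDIA6, another isomerase that associates with HSPA5, overlapped too, with means of 7.59 ± 0.08 and 7.50 ± 0.04 (SD, n = 6 each) in low and high feed efficiency pigs.

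The other ER J proteins did not share one direction. DNAJB9, which recruits HSPA5 to the stress sensor ERN1, had means of 7.56 ± 0.07 in low and 7.53 ± 0.08 in high feed efficiency pigs (SD, n = 6 each). DNAJB11, an HSPA5 cofactor for nascent chains, was widely spread, from 7.05 to 7.91 (median 7.36) in low and from 7.21 to 7.90 (median 7.70) in high feed efficiency pigs, with a difference of -0.20 ± 0.16 (SE). PDIA5, a further isomerase, differed by -0.18 ± 0.11 (SE), with every low feed efficiency pig below the mean of the high group. The mean signal of PDIA5 lay within the background range. DNAJB11 and PDIA5 each had 1 other probe set, and those differed by 0.06 and 0.07, opposite to the brightest ones.

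**Figure D2:**
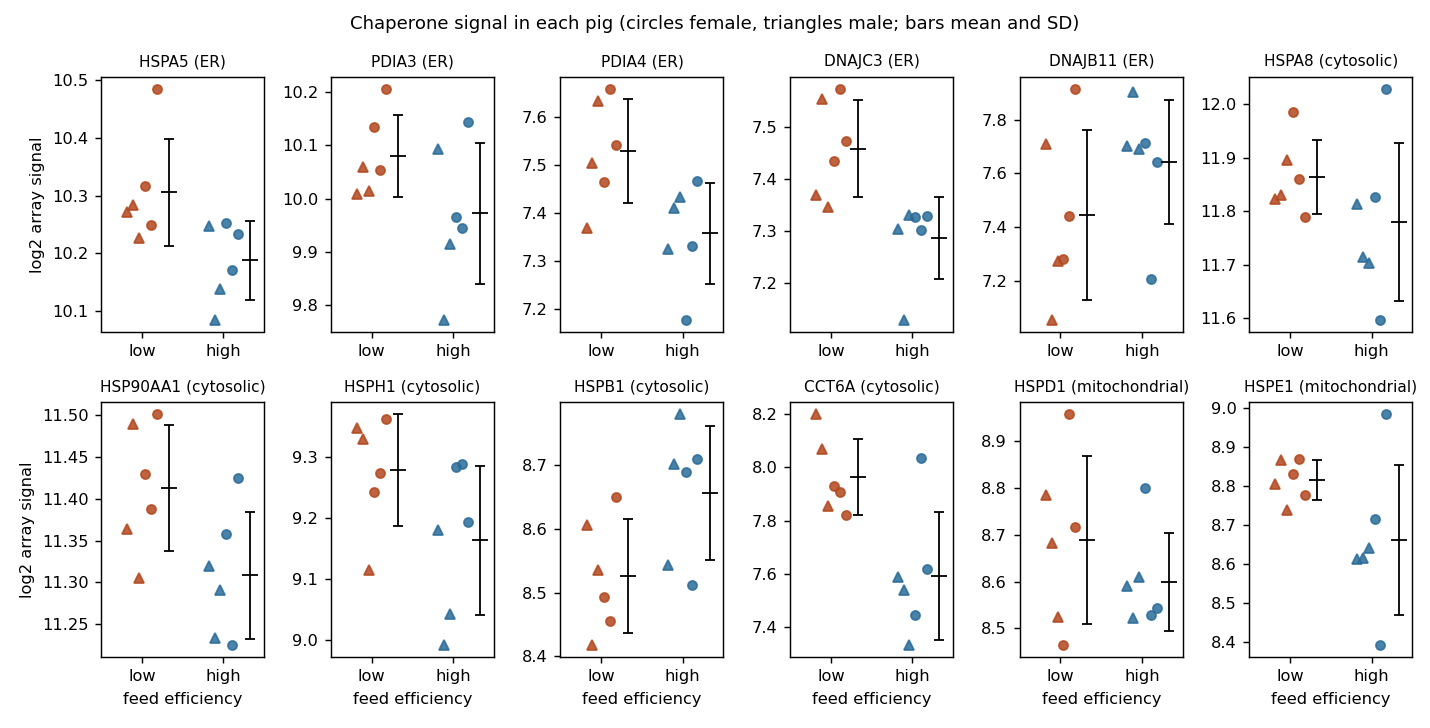
Log2 array signal (vertical axis) of 12 members in each pig, with low feed efficiency pigs on the left and high feed efficiency pigs on the right of each panel, circles for females and triangles for males, and bars for the mean and SD of 6 pigs. DNAJC3 is the one member whose groups do not overlap, and HSPA5, PDIA4 and CCT6A overlap over part of their ranges.

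The cytosolic chaperones had a median difference of 0.03, with 23 of 33 higher in low feed efficiency pigs. The median was 0.0547 with equal array medians and 0.0498 after quantile normalization, and between 0.0506 and 0.0518 without low feed efficiency pig 2 or 5 or high feed efficiency pig 1, 2, 3 or 4. HSPA8, the constitutive cytosolic HSP70 that also uncoats clathrin vesicles at synapses, stood at 11.79, 11.84 and 11.99 (lowest, median, highest) in low feed efficiency pigs, against 11.60, 11.76 and 12.03 in high feed efficiency pigs. The low range lay wholly inside the high one, and the difference was 0.08 ± 0.08 (SE). HSP90AA1, the inducible cytosolic HSP90, stood at 11.31, 11.41 and 11.50 in low and at 11.22, 11.30 and 11.42 in high feed efficiency pigs, a difference of 0.10 ± 0.07 (SE). The 2 ranges overlapped, with 5 of 6 low feed efficiency pigs above the high group's mean.

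HSP90AB1, the constitutive form, differed by 0.06 ± 0.06 (SE), with ranges of 11.33 to 11.48 in low and 11.25 to 11.41 in high feed efficiency pigs. HSPH1, the HSP110 that recharges HSP70 with ATP, had means of 9.28 ± 0.09 in low and 9.16 ± 0.12 in high feed efficiency pigs (SD, n = 6 each), and its relative HSPA4L had means of 8.20 ± 0.09 and 8.03 ± 0.24. Their differences were 0.12 ± 0.07 and 0.18 ± 0.10 (SE), the ranges of each overlapped, and the other probe set of HSPA4L differed by 0.33.

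DNAJB4, a cytosolic J protein, ranged from 6.04 to 6.25 (median 6.19) in low feed efficiency pigs, against 5.57 to 6.18 (median 5.89) in high feed efficiency pigs. Its difference of 0.28 ± 0.10 (SE) had an unadjusted p of 0.0141 and an adjusted p of 0.775 (limma). The spread was wide in the high group and narrow in the low group, in which all 6 pigs lay above the high group's mean. HSPA12B, an endothelial relative of the HSP70s, ranged from 4.09 to 4.78 (median 4.53) in low and from 4.47 to 4.88 (median 4.76) in high feed efficiency pigs, with a difference of -0.26 ± 0.12 (SE; unadjusted p = 0.0493, adjusted p = 0.812, limma). Of the low feed efficiency pigs, 5 of 6 lay below the mean of the high group. The mean signals of DNAJB4 and HSPA12B lay within the background range.

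The 7 small heat shock proteins, which hold unfolding proteins without ATP, had a median difference of 0.03, and 4 of 7 were higher in low feed efficiency pigs. That direction was not stable: the median was -0.0337 (2 of 5 higher) with the dimmest 50% of probe sets left out and -0.0430 (3 of 7 higher) without high feed efficiency pig 5, and it lay between -0.0430 and 0.0951 over the 12 fits without single pigs. HSPB1, also called HSP27, ranged from 8.42 to 8.65 (median 8.51) in low feed efficiency pigs, against 8.51 to 8.78 (median 8.70) in high feed efficiency pigs. The ranges overlapped, but the mean of the high group exceeded the signal of all 6 low feed efficiency pigs, and the difference was -0.13 ± 0.07 (SE; adjusted p = 0.819, limma). Its other probe set, which was dimmer, differed by 0.04.

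Of the 7 CCT subunits named on the array, 5 were higher in low feed efficiency pigs, with a median difference of 0.06. CCT6A, the zeta subunit, had the largest difference of all members. It ranged from 7.82 to 8.20 (median 7.92) in low feed efficiency pigs, against 7.33 to 8.03 (median 7.56) in high feed efficiency pigs, a difference of 0.37 ± 0.12 (SE; unadjusted p = 0.00882, adjusted p = 0.764, limma). The groups overlapped through the highest pig of the high group. The other 6 subunits, which are parts of the same ring complex, differed by -0.01 (CCT5 and CCT7), 0.06 (CCT3 and CCT4) and 0.11 (CCT2 and CCT8). Other tested probe sets of CCT8 differed by -0.15 to -0.04 and that of CCT5 by 0.06, opposite to the brightest ones. When the arrays were set to equal medians, 7 of 7 were positive, so the signs of CCT5 and CCT7 depended on the scaling.

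Of the 8 mitochondrial chaperones, 7 were higher in low feed efficiency pigs, with a median difference of 0.10, and none had an unadjusted p under 0.05. Only HSPD1 and HSPE1 of the 8 had mean signals above the background range. Over the 12 pigs the average of the 8 had r = 0.68 with the average of 6 astrocyte markers and -0.67 with that of 5 oligodendrocyte markers. The part of these markers in the result was not tested. HSPD1, which forms the folding chamber, ranged from 8.46 to 8.96 (median 8.70) in low and from 8.52 to 8.80 (median 8.57) in high feed efficiency pigs, a difference of 0.09 ± 0.09 (SE). HSPE1, the lid of that chamber, ranged from 8.74 to 8.87 (median 8.82) in low and from 8.39 to 8.98 (median 8.63) in high feed efficiency pigs, a difference of 0.15 ± 0.09 (SE). The low feed efficiency pigs were tightly grouped for HSPE1 and lay inside the wide range of the high group. The mitochondrial J proteins DNAJC28, DNAJC15, which acts at the protein import channel, and DNAJC30 differed by 0.17 ± 0.11, 0.14 ± 0.10 and 0.11 ± 0.07 (SE). Equal array medians turned the eighth gene, DNAJC11, positive as well, and 8 of 8 then were.

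Among the 10 vesicle and ER-membrane J proteins, 7 were higher in low feed efficiency pigs, with a median of 0.03 that was 0.0049 without high feed efficiency pig 6, 0.0121 without low feed efficiency pig 4, 0.0198 without high feed efficiency pig 3, 0.0489 without high feed efficiency pig 1 and 0.0528 without high feed efficiency pig 5. DNAJC5, the cysteine string protein of synaptic vesicles, differed by -0.08 ± 0.07 (SE), and DNAJC6 (auxilin), which brings HSPA8 to clathrin coats in neurons, by 0.05 ± 0.06 (SE). DNAJB14, an ER-membrane J protein, differed by 0.20 ± 0.14 (SE) and DNAJC5G by 0.18 ± 0.13 (SE), both at mean signals within the background range. The ranges of these 4 genes overlapped between the groups. Of the 8 tested members with no compartment, 4 were higher, with a median of -0.00233.

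Probe sets of one gene often went different ways. Of the 26 members with several tested probe sets, the brightest and the mean of the others had the same sign of the difference in 11. Over the 12 pigs, the highest correlation of the brightest probe set with another of its gene had a median of 0.19, was above 0.5 in 6 genes and was negative in 8. HSPA5, PDIA3, PDIA4, HSPA8, HSP90AA1, HSP90AB1 and HSPH1 each had a single probe set, so no second measurement of them exists on the array.

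Between the sexes 0 members were called in limma, with a lowest adjusted p of 0.996, and 1 had an unadjusted p under 0.05. On the array 0.0224% of probe sets were called, and 3.95% of genes had an unadjusted p under 0.05, 2.1% being higher in females. The member was DNAJB13, a J protein of sperm flagella and motile cilia, with means of 5.54 in females and 5.29 in males and a difference of 0.25 ± 0.10 (SE; unadjusted p = 0.0328). The other differences with the smallest p-values were 0.14 for DNAJA3, 0.26 for DNAJC5G and 0.21 for DNAJC12, and -0.13 for HSPB6, -0.19 for HSPB7, -0.11 for DNAJC11 and -0.09 for HSPB9. All of these genes except HSPB6, and DNAJB13 too, had mean signals within the background range. The female minus male difference was positive for 53 of 71 members (74.6%), against 52.9% of all genes, including 9 of 12 ER chaperones and 7 of 7 CCT subunits (6 of 7 with equal array medians). Of the 7 small heat shock proteins, 2 were higher in females. The run of higher identifiers held only females, so sex and that run cannot be told apart fully. Feed efficiency was balanced over it, and with the run as a further term 0 members were called between low and high feed efficiency, the lowest adjusted p being 0.781 (limma).

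No member passed the limma test of the interaction, which asks whether the feed efficiency difference differs between females and males, with a lowest adjusted p of 0.779. Of 71 members, 4 had an unadjusted p under 0.05 (5.63%), against 5.28% of all genes, and for 1 of them (HSPB3) the interaction was positive, against 2.7% of all genes. The interaction was positive for 33 of 71 members, against 50% of all genes. DNAJB4 differed by 0.04 in females and 0.52 in males, an interaction of -0.48 ± 0.14 (SE; unadjusted p = 0.00572). The 3 low feed efficiency males lay between 6.11 and 6.25, against 5.57 to 5.75 for the 3 high feed efficiency males, whereas the females overlapped at 6.04 to 6.23 and 6.02 to 6.18. DNAJB14 differed by -0.11 in females and 0.52 in males, PDIA5 by -0.42 and 0.05, and HSPB3 by 0.31 and -0.24. DNAJC5B and DNAJB11 had interactions of 0.41 ± 0.25 and 0.45 ± 0.30 (SE). Of the genes named for the interaction, all but DNAJB11 had mean signals within the background range. With the probe sets of a gene averaged, the interaction of PDIA5 was -0.0183 in place of -0.48, and that of DNAJB11 was 0.0010. That of DNAJC5B was 0.25 without low feed efficiency pig 3 and 0.24 without low feed efficiency pig 4, and that of DNAJB11 was 0.26 without low feed efficiency pig 6 and 0.29 without high feed efficiency pig 5.

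In males alone, low and high feed efficiency did not overlap for 11 of 71 members, against 14.6% of all genes. The 11 were PDIA6, DNAJB9, DNAJC3, PDIA2, HSPA8, CCT2, CCT5, CCT6A, DNAJB4, HSPE1 and DNAJC6. The limma test within males called 0 members (0.00838% of probe sets), with 4 at an unadjusted p under 0.05, all higher in low feed efficiency males, against 8.07% of all genes, 3.97% being higher, and a lowest adjusted p of 0.298 for DNAJB4. Within females it called 0 members, with 1 at an unadjusted p under 0.05, which was lower, against 3.47% of all genes, 1.57% being higher. The difference was positive for 49 of 71 members in males and 44 of 71 in females, against 49% and 49.1% of all genes. With 3 pigs a cell the test was weak: of 100 simulated probe sets whose interaction was 1 on the log2 scale, 8% were called.

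Covariation was measured as Pearson's r over the 12 pigs between 3 anchor genes, HSPA5 for the ER, HSPD1 for mitochondria and HSPA8 for the cytosol, and every other tested member, 207 pairs in all. Each pair had a two-sided permutation test with 100000 resamples over the pigs. With Benjamini-Hochberg adjustment over the 207 pairs, 3 pairs passed by Pearson's r, all positive, and 0 by Spearman's rho. Adjusted instead over the 37824 pairs of the 3 anchors with all tested genes, 0 pairs passed (0%), the lowest adjusted p being 0.496. An unadjusted p under 0.05 was found for 20 of the 207 pairs (9.66%), against 7.18% of the pairs with all genes. Over the 207 pairs, too, 0 passed when group and sex means were removed, and 0 when any one of low feed efficiency pigs 4 and 6 or high feed efficiency pigs 2, 3, 4 and 5 was left out. The correlations are therefore described with both adjustments, and neither the members nor the anchors were chosen without knowledge of earlier results of these data.

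HSPA5 varied most closely with the cytosolic HSP90s and with PDIA3, and less with several ER chaperones. With HSP90AB1, r was 0.88 (permutation p = 0.00037, adjusted p = 0.0304 over 207 pairs and 0.496 over all genes) and rho 0.64 (permutation p = 0.0301, adjusted p = 0.283). Without low feed efficiency pig 6 and high feed efficiency pig 2, the 2 pigs farthest from the HSPA5 median, r was 0.67. Within the groups, r was 0.81 in low and 0.90 in high feed efficiency pigs (n = 6 each).

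With HSP90AA1, r was 0.83 (permutation p = 0.0002, adjusted p = 0.0304 over 207 pairs and 0.496 over all genes) and rho 0.88 (permutation p = 0.00035, adjusted p = 0.0724). It was 0.76 without the same 2 pigs and 0.74 within either group. With PDIA3, r was 0.85 (permutation p = 0.00103, adjusted p = 0.0533 over 207 pairs and 0.496 over all genes) and rho 0.70 (permutation p = 0.0140, adjusted p = 0.200), and r was 0.71 without the 2 pigs. The single pig with the highest HSPA5 signal was low feed efficiency pig 6. Of all pigs it also had the highest signals of HSP90AB1, HSP90AA1, PDIA3, PDIA6, CCT3, CCT4, DNAJA1 and HSPH1.

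The next highest were CCT3, r = 0.80 (permutation p = 0.00355, adjusted p = 0.0890; rho = 0.69, permutation p = 0.0154, adjusted p = 0.200), and DNAJA1, the main partner of HSPA8 in the cytosol, r = 0.79 (permutation p = 0.00551, adjusted p = 0.104; rho = 0.73, permutation p = 0.0103, adjusted p = 0.196). Without the 2 pigs, the correlation with CCT3 was 0.39 and that with DNAJA1 0.66. Within the groups, r with CCT3 was 0.87 in low and 0.66 in high feed efficiency pigs (n = 6 each). Among the other ER members r was 0.76 for PDIA6, 0.65 for DNAJC3, 0.24 for PDIA4, 0.16 for DNAJB9 and 0.04 for DNAJB11. The lowest values were -0.53 for HSPA12A, -0.42 for HSPB6 and -0.41 for DNAJC2, the last at a mean signal within the background range. With group and sex means removed, the order of the ER members changed. The r with HSPA5 was then 0.66 for PDIA6, 0.18 for DNAJC3, -0.32 for PDIA4, -0.04 for DNAJB9 and 0.45 for DNAJB11. It was 0.79 for HSP90AB1, 0.67 for HSP90AA1 and 0.74 for PDIA3.

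Over all members, HSPA5 had a positive r with 54 of 70 (77.1%), against 51.0% of all genes, and a median r of 0.29, against 0.01. The median was 0.35 over the 11 other ER members, 0.37 over the 33 cytosolic ones and 0.45 over the 8 mitochondrial ones. An unadjusted p under 0.05 was found for 11 of 70 (15.7%), all positive, against 8.82% of all genes. Of all genes tested, 5% had an r above 0.57 with HSPA5, and 12 members did. Signals above the background range were found for 35 of 71 members and for 2738 of 12609 genes. The shares of all genes given for the anchors were not matched for signal level.

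**Figure D3:**
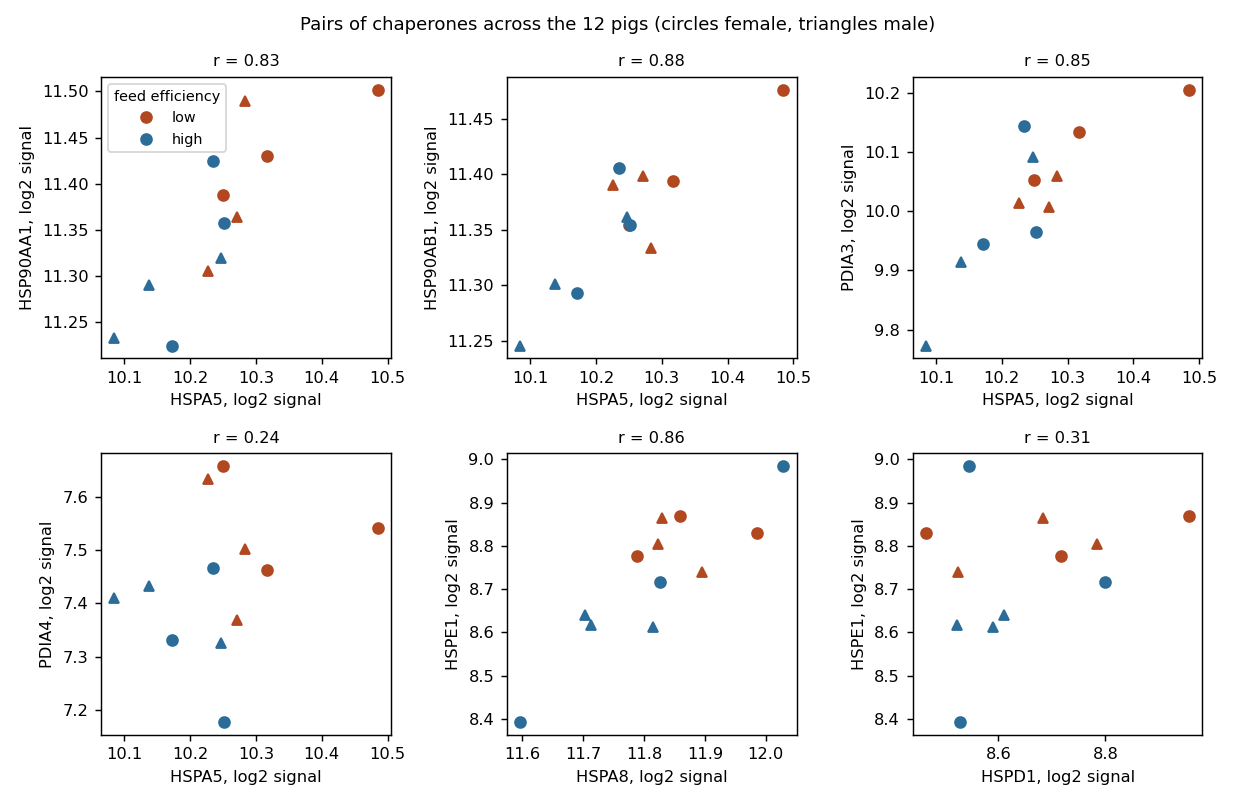
Log2 array signals of 6 pairs of chaperones in the 12 pigs, 1 point per pig, coloured by feed efficiency group, with Pearson's r above each panel. HSPA5 runs with HSP90AB1 (0.88), PDIA3 (0.85) and HSP90AA1 (0.83) but with wide scatter against PDIA4 (0.24), and HSPE1 runs with HSPA8 (0.86) more closely than with HSPD1 (0.31).

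HSPA8 varied most closely with the mitochondrial HSPE1, r = 0.86 (permutation p = 0.00044, adjusted p = 0.0304 over 207 pairs and 0.496 over all genes), with rho = 0.80 (permutation p = 0.00274, adjusted p = 0.116). Without high feed efficiency pigs 5 and 6, the 2 farthest from the HSPA8 median, r was 0.62. It was 0.05 in the low feed efficiency pigs, whose HSPE1 signals lay within a narrow range, and 0.95 in the high feed efficiency pigs (n = 6 each). The difference between the groups was not tested. After quantile normalization of the table, r over the 12 pigs was 0.45.

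DNAJB9 followed with r = 0.76 (permutation p = 0.00387, adjusted p = 0.0890; rho = 0.86, permutation p = 0.00075, adjusted p = 0.0776), and r = 0.65 without the same pigs. HSPB2, a small heat shock protein of muscle, had r = 0.71, PDIA3 0.62 and HSP90AA1 0.60. At the other end stood DNAJC2, a ribosome-associated J protein, with r = -0.80 (permutation p = 0.00167, adjusted p = 0.0691; rho = -0.64, permutation p = 0.0296, adjusted p = 0.283) and -0.52 without the 2 pigs, then CCT5 at -0.70 and HSPB7 at -0.48. The mean signals of HSPB2, DNAJC2 and HSPB7 lay within the background range. HSPA8 had a positive r with 46 of 70 members (65.7%), against 55.6% of all genes. An unadjusted p under 0.05 was found for 8 of the 68 pairs not counted under the other anchors, against 7.57% of all genes.

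No member had a close positive correlation with HSPD1. Its highest correlations were 0.55 with DNAJC3, 0.54 with DNAJC22, 0.51 with HSPH1, 0.47 with DNAJC7 and 0.44 with CCT8, each with a permutation p adjusted over the 207 pairs of 0.522 or more. Its lowest were -0.72 with DNAJB5 (permutation p = 0.0083, adjusted p = 0.143; rho = -0.80, permutation p = 0.00301, adjusted p = 0.116), which was -0.81 without low feed efficiency pig 5 and high feed efficiency pig 4, then -0.49 with HSPA12B and -0.43 with CCT7. It had a positive r with 40 of 70 members (57.1%), against 47.6% of all genes, and 1 of 69 pairs had an unadjusted p under 0.05, against 5.14% of all genes. Of the members named here, DNAJC3, DNAJC22 and HSPA12B had mean signals within the background range.

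HSPD1 and HSPE1 encode the 2 parts of one folding chamber and are direct neighbours in the RefSeq annotation of the pig genome, with 0 genes between them. Their correlation was 0.31 (permutation p = 0.328, adjusted p = 0.788; rho = 0.28, permutation p = 0.379, adjusted p = 0.769). The 3 probe sets of HSPD1 had correlations of 0.31, 0.44 and 0.04 with HSPE1 and of -0.01 to 0.32 with the brightest of their own, values looked at after the low correlation was seen. Their feed efficiency differences of 0.09, 0.07 and 0.07 lay close together.

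Over all pairs of members, the mean r was 0.13 within the ER set (66 pairs), 0.06 within the cytosolic set (528 pairs) and 0.14 within the mitochondrial set (28 pairs). Between the sets it was 0.11 for ER with cytosolic (396 pairs), 0.18 for ER with mitochondrial (96 pairs) and 0.12 for cytosolic with mitochondrial members (264 pairs). The mean over all gene pairs was 0.0035, and that over pairs of genes above the background range was 0.05. Within the CCT family the mean was 0.23 (21 pairs). The mean r within the ER set was thus no higher than that between ER and mitochondrial members, a description with no test because the members share the same 12 arrays.

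Among 22 well-known members, to which DNAJA1 was added after its values were seen, the highest correlations joined members of the same and of different compartments. After HSPA5 with HSP90AB1 (0.88) came HSPH1 with DNAJA1 (0.88), PDIA3 with HSP90AB1 (0.88), DNAJA1 with CCT3 (0.87), HSPA8 with HSPE1 (0.86), the ER pair HSPA5 with PDIA3 (0.85), HSP90AA1 with CCT4 (0.83) and HSPH1 with CCT3 (0.83). DNAJB11 and HSPB1, whose brightest probe sets were lower in low feed efficiency pigs, varied together by those probe sets (0.78). The most negative were -0.79 for DNAJB9 with CCT5 and -0.74 for HSPB1 with CCT6A. These values rest on single probe sets. The brightest probe set correlated with the other tested one of its gene at -0.45 for DNAJB11, 0.16 for HSPB1 and -0.07 for CCT5.

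**Figure D4:**
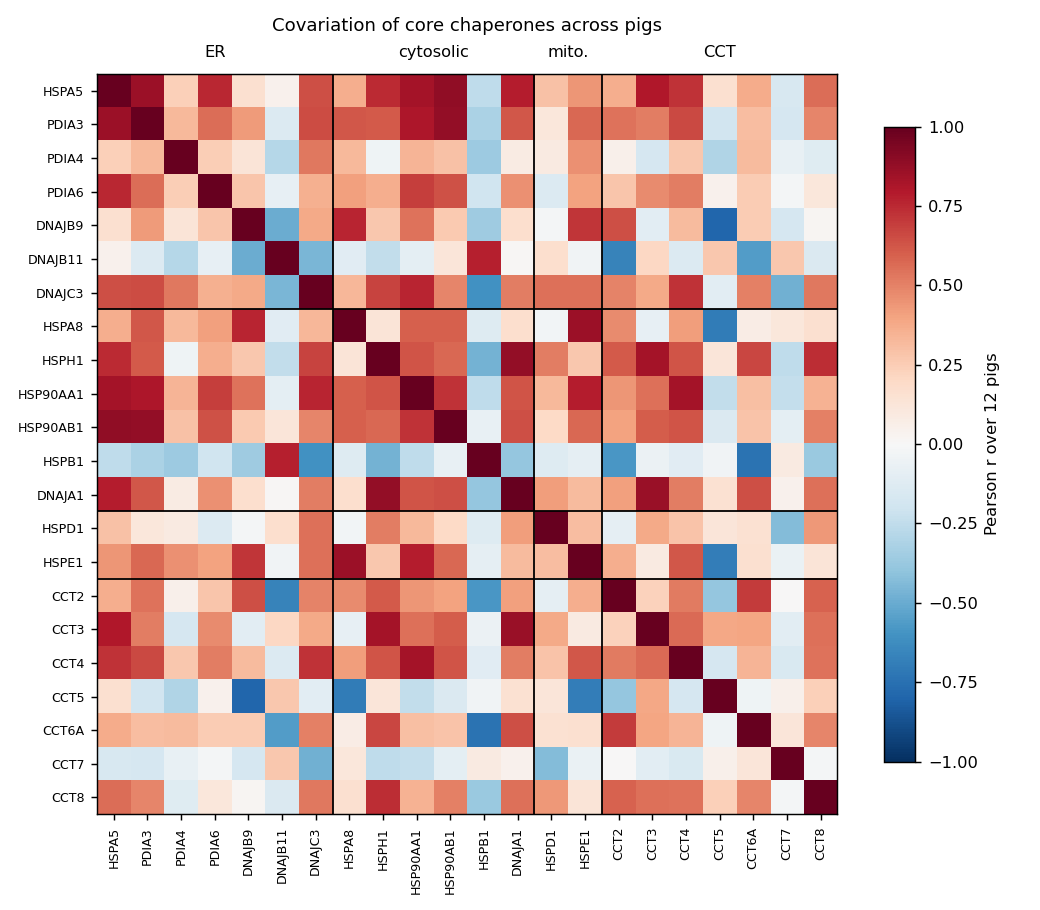
Pearson's r over the 12 pigs (colour) for every pair of 22 well-known ER, cytosolic and mitochondrial chaperones, ordered by compartment. HSPA5, PDIA3, PDIA6, the HSP90s, HSPH1, DNAJA1 and CCT3 are positive with one another across compartments. Other members, among them CCT4 and DNAJC3, are positive with all of these too. Low feed efficiency pig 6 had the highest signal of each gene in the first list. With group and sex means removed, PDIA6 with HSPH1 fell from 0.36 to 0.04 and PDIA6 with DNAJA1 from 0.45 to 0.19. DNAJB11 and HSPB1 are positive with each other by their brightest probe sets.

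Averaged over its members as deviations from each gene's mean, the ER set ranged from -0.04 to 0.12 in low and from -0.09 to 0.05 in high feed efficiency pigs. The cytosolic set ranged from -0.04 to 0.06 in low and from -0.08 to 0.01 in high feed efficiency pigs, and the mitochondrial set from -0.04 to 0.09 in low and from -0.14 to 0.03 in high feed efficiency pigs. The groups overlapped in all 3 sets. The set averages correlated over the 12 pigs at 0.67 for ER with cytosolic, 0.69 for ER with mitochondrial and 0.70 for cytosolic with mitochondrial, as a description without a test. Averages over many genes can correlate more than single pairs do, and no background of other gene sets was set beside these values.

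Cell type markers and array-wide variation moved with some of these values, and their part in the results was not tested. Of 7 neuron markers tested, 6 were higher in low feed efficiency pigs, and their average deviation ranged from -0.05 to 0.16 in low and from -0.15 to 0.05 in high feed efficiency pigs. Of 5 oligodendrocyte markers, 1 was higher, and the average ranged from -0.39 to 0.16 in low and from -0.06 to 0.20 in high feed efficiency pigs. With HSPA5 the neuron average had r = 0.58 and the oligodendrocyte average r = -0.52, with 0 of 5 oligodendrocyte markers positive. Markers of the anterior pituitary, of which 3 of 6 passed the filter at mean signals of 4.99 to 5.47, averaged -0.87 to 1.37 in low and -0.96 to 0.64 in high feed efficiency pigs and had r = 0.60 with HSPA5. The highest value of 1.37 belonged to low feed efficiency pig 6, the pig with the highest HSPA5 signal, and among these markers GH1, growth hormone, had r = 0.82 with HSPA5. HSPA8 had r = 0.63 with the astrocyte average, with 6 of 6 astrocyte markers positive. Of the other marker lists, 4 of 6 astrocyte, 3 of 5 microglia, 4 of 6 endothelial, 2 of 5 choroid plexus and 1 of 7 neuropeptide genes were higher in low feed efficiency pigs.

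The 1st principal component of all tested probe sets held 12.9% of the variance and ranged from -0.02 to 0.47 in low and from -0.58 to 0.26 in high feed efficiency pigs. Of the 10 members with the largest differences in size, some followed it and some did not. The r with the component was 0.84 for DNAJB4, 0.84 for DNAJB14, 0.82 for HSPA4L, 0.73 for CCT6A, 0.69 for DNAJC3, 0.66 for DNAJC12 and -0.65 for DNAJB11. It was 0.33 for DNAJC5G, -0.02 for PDIA5 and -0.28 for HSPA12B, and outside these 10 it was 0.41 for PDIA4 and -0.71 for HSPB1. For 9 of 71 members (12.7%) the correlation exceeded 0.7 in size, against 6.75% of all genes. These values were looked at after the differences were seen, and the part of the component in the differences was not tested.

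Genes of the pathways that induce or assist chaperones were read from lists, and none was called. Of 24 tested genes of the ER stress response, 14 were higher in low feed efficiency pigs, with a median difference of 0.01, and 0 had an unadjusted p under 0.05. SEL1L, of the machinery that exports misfolded ER proteins for degradation, differed by 0.19 ± 0.09 (SE), DERL2 of the same machinery by 0.76 ± 0.36 (SE), and EIF2AK3, the ER stress kinase PERK, by 0.10 ± 0.06 (SE). The list's median r with HSPA5 was -0.02, with 12 of 24 positive, and the highest values were 0.56 for EIF2AK3 and 0.56 for PPP1R15A, which reverses its phosphorylation mark. The mean signals of DERL2, EIF2AK3 and PPP1R15A lay within the background range.

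Of 18 tested heat shock factors and cytosolic co-chaperones, 10 were higher, with a median of 0.05 and 2 at an unadjusted p under 0.05. FKBP4, a co-chaperone of HSP90 at steroid receptors, had means of 7.72 ± 0.08 in low and 7.51 ± 0.07 in high feed efficiency pigs (SD, n = 6 each) and a difference of 0.21 ± 0.07 (SE; adjusted p = 0.764, limma). HSF2, a heat shock factor, differed by 0.19 ± 0.08 and CHORDC1, an HSP90 partner, by 0.24 ± 0.11 (SE). The list's median r with HSPA5 was 0.26, with 13 of 18 positive, and the highest values were 0.69 for CACYBP and 0.69 for CHORDC1. Of 9 tested genes of mitochondrial protein quality control, 5 were higher, and SPG7, TRAP1 and CLPX differed by -0.23 ± 0.12, -0.20 ± 0.13 and 0.12 ± 0.08 (SE). Their median r with HSPA5 was -0.13, with YME1L1 (0.61) and CLPX (0.54) highest. Of the genes named in this paragraph, HSF2, CACYBP, SPG7 and TRAP1 had mean signals within the background range.

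Outside the members, the genes with the highest r to HSPA5 over the 12 pigs were NAALAD2 (0.89), IFT57 (0.89), SMARCA2 (0.87), LGALS8 (0.87) and PPP2CB (0.85). Those closest to HSPA8 were the actin-binding PFN2 (0.91), GUK1 (0.89), BPNT1 (0.89), DBI (0.88) and TAGLN3 (0.86). Those closest to HSPD1 were FAM76B (0.90), NMU (0.83), STX4 (0.83), PPP4R4 (0.82) and INPP5E (0.81). Mean signals lay within the background range for NAALAD2 (3.70), IFT57 (5.91), GUK1 (4.17) and BPNT1 (7.06). The same held for FAM76B (4.41), NMU (3.22), STX4 (5.45) and PPP4R4 (3.11), and the other genes named here lay above that range. Members were left out of this ranking, and no pair passed after adjustment over all genes.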

How the data were processed

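The authors deposited a table of array signals that was read as log2, since its values ran from 0.38 to 14.2; its scale, background correction and normalization are not stated in the labels. Per the submitters' processing notes, GCOS 1.1.1 was used. Symbols came from the platform annotation, and all 73 members' symbols were current in RefSeq. After 123 control probe sets were left out, the 25% of 47722 with the lowest mean (under 2.43) were left out, which left 35791.

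Differences (low minus high feed efficiency, female minus male) came from limma 3.58.1 (R 4.3.3) over the whole table, with feed efficiency and sex as terms or with 4 groups for the interaction, and Benjamini-Hochberg adjustment at 0.05. Permutation tests used Python version 3.11.15 with numpy 2.4.6. The members, lists and named genes were chosen with earlier results of these data known. Named were 21 well-known members, the 4 of each compartment with the smallest p, 4 per direction for sex, 3 per direction for the interaction, and the 5 highest and 3 lowest correlations per anchor. Lists gave the 3 smallest p and the 2 highest correlations with HSPA5. Genes outside this rule were named after their values were seen. The fits and the correlation test were tested on simulated data: at a true correlation of 0.7 over 12 pigs, 87.5% of 200 genes had a p under 0.05, and at 0 it was 4.5%.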

Additional observations from a re-analysis of the deposited data

Results flagged for a closer look

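Among 96 groups of 6 pigs for 48 named members, 5 held a pig whose gap to the nearest other pig, divided by the whole range of its group, exceeded Dixon's 95% critical value; chance gives about 1 in 20. HSPA5 was 10.49 in low feed efficiency pig 6, with the next pig at 10.32. CCT5 was 8.98 in the same pig, with the next at 8.88, and 8.70 in high feed efficiency pig 6, with the next at 8.89. DNAJC3 was 7.13 in high feed efficiency pig 2, with the next at 7.30. HSPD1 was 8.80 in high feed efficiency pig 4, with the next at 8.61. Without low feed efficiency pig 6, 0 of the anchor pairs passed the adjustment over the pairs with members.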

How the results depend on the processing

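For feed efficiency, sex and their interaction, 0 members were called under every alternative run (no filter or the dimmest 50% left out, quantile normalization, equal array medians, trend and robust settings, array weights, averaged probe sets, a threshold of 0.1, other covariates for feed efficiency, and each pig left out). With the replicate number as a block, 0 members were called, the lowest adjusted p being 0.789 (limma). The numbers follow the order of deposit, and the labels name no pairs. Signal deviations of pigs with the same number correlated at -0.01 to 0.12. For 4 of 6 numbers, the own number gave the highest correlation. The signs of small differences turned: CCT5 was 0.012 with equal array medians and 0.0254 with probe sets averaged, and -0.0514 to 0.0045 without single pigs; CCT7 was 0.0137 with equal array medians, 0.0041 with array weights and -0.0406 to 0.0320 without single pigs; with probe sets averaged CCT8 was -0.0259 and DNAJC5G -0.0727. The share of members higher in low feed efficiency pigs was 77.5% with equal array medians, when that of all genes was 56.6%, and 64.8% against 48.2% after quantile normalization. The causes of these changes were not tested.

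Of the 207 anchor pairs, 3 passed, against 1 after quantile normalization, 7 with probe sets averaged, 0 after group and sex means were removed, 0 with adjustment over all tested genes (added after the data were seen) and 0 to 5 without single pigs. It was 0 without low feed efficiency pig 4 or 6, or high feed efficiency pig 2, 3, 4 or 5. The r of HSPA8 with HSPE1 was 0.45 after quantile normalization. The mean r over pairs changed as follows. With equal array medians it was 0.17 within the ER set, 0.15 for ER with cytosolic, 0.23 for ER with mitochondrial, 0.10 within the cytosolic, 0.16 for cytosolic with mitochondrial and 0.19 within the mitochondrial set. With group and sex means removed the same values were 0.0826, 0.0636, 0.12, 0.0254, 0.0655 and 0.0583. With probe sets averaged it was 0.22 within the ER set, 0.13 for ER with cytosolic, 0.22 for ER with mitochondrial and 0.18 within the mitochondrial set. With the dimmest 50% left out it was 0.13 for ER with cytosolic and 0.0909 within the cytosolic set. Quantile normalization gave 0.14 for ER with mitochondrial and 0.0784 for cytosolic with mitochondrial, and adding ER-membrane J proteins gave 0.12 for ER with mitochondrial. A change was counted against the range without single pigs, a yardstick set after the values were seen, so that range says nothing on stability. Signals within the background range limit 36 of the 71 members.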
